A study of Homo sapiens with 7 samples.

Results

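The integrated stress response and the unfolded protein response are described here through 37 genes, chosen by name out of the 60234 in the deposited expression table. Poly-A RNA was sequenced from cardiomyocytes made with small molecules from WTC-11, an established human induced pluripotent stem cell line. The cells matured for 35 days and then took up, unassisted, 2 uM of an antisense oligonucleotide (ASO), a synthetic strand made to bind one RNA, over 96 h. One group received a scrambled ASO (3 libraries) and the other an ASO against MYH7B (4 libraries, of which replicates 2, 3 and 4 were compared). All libraries share the one cell line and the labels name no separate differentiations, so p-values measure only the spread between these libraries, which may be technical. The study asked what the MYH7B transcript, treated by the study as a regulatory noncoding RNA, does in human heart cells.

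The integrated stress response begins when kinases, among them PERK at the endoplasmic reticulum (ER), phosphorylate the translation factor eIF2. General protein synthesis then slows while the transcription factor ATF4 is translated more, and ATF4 turns on genes for amino acid synthesis and uptake, for feedback and, under lasting stress, for cell death. The unfolded protein response adds the ER sensors IRE1 and ATF6, which raise chaperones and ER-associated degradation, the route that returns misfolded proteins to the cytosol. PERK, IRE1 and ATF6 activity changes first through phosphorylation, splicing and cleavage, which gene-level RNA abundance does not measure.

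MYH7B, the ASO target, had 23.0, 36.5 and 25.1 TPM (transcript abundance scaled to a fixed library total, so relative to all measured RNA of a library) in scrambled ASO replicates 1 to 3. It had 9.30, 5.65 and 6.31 TPM in MYH7B ASO replicates 2 to 4 (log2 fold change -1.85, standard error 0.24, limma adjusted p = 0.0109). The fold change is on log2(TPM + 1), which understates changes of low genes. The limma test fits the same linear model to each gene separately and draws on all genes for its estimate of spread. The MYH7B call was lost with no filter on low genes, with 7 libraries and without MYH7B ASO replicate 4 (limma adjusted p = 0.0779, 0.0525 and 0.0618). It was also lost under both replicate blocks (limma adjusted p = 0.331 and 0.720), in which no gene was called. A block compares only libraries of both groups that share a replicate number, 2 pairs by title. Those fits had little power, so a lost call there does not show a smaller effect. The deposited column of MYH7B ASO replicate 1 is out of step with the gene names. Put in the order of GENCODE 29 identifiers it gave 1.29 TPM of MYH7B, and it enters here only as a check. All 10 cardiomyocyte markers averaged at least 1 TPM, while 4 of 6 endothelial markers and 4 of 5 endoderm markers did not. Summed cardiomyocyte markers ran from 9610 to 10571 TPM with the scrambled ASO and from 7642 to 8936 TPM with the MYH7B ASO. MYL7 was the most abundant of them in every compared library. ACTN2, MYL7, PLN and RYR2 were lower without overlap, and the other cardiomyocyte markers overlapped between groups. The 10 fibroblast markers, all above 1 TPM on average, summed to 2898, 3037 and 5191 TPM in scrambled ASO replicates 1 to 3 and to 1726, 2079 and 1351 TPM in MYH7B ASO replicates 2 to 4. COL1A1, COL1A2 and COL3A1 made up 93.0% to 95.9% of that sum. Of the 10, 7 were lower in MYH7B ASO replicates 2 to 4 without overlap, POSTN overlapped, and TCF21 and PDGFRA were higher without overlap. TCF21 had 7.40, 7.53 and 10.3 TPM against 12.1, 18.4 and 12.8 TPM. The 5 epithelial markers, all above 1 TPM on average, summed to 1918 to 2251 TPM and to 2212 to 2693 TPM. KRT8 and KRT19 were higher without overlap, CDH1 was lower without overlap, and KRT18 and EPCAM overlapped between groups. Among pluripotency markers, 3 of 5 averaged at least 1 TPM, with sums of 4.24 to 7.13 TPM and 2.80 to 5.82 TPM. The endoderm sums, nearly all APOA1, were 4.03 to 6.41 TPM and 9.37 to 15.6 TPM. The 6 smooth muscle and pericyte markers summed to 1006 to 1412 TPM and to 592 to 792 TPM. CNN1 and RGS5 overlapped between groups, and the others of this list were lower without overlap. In such bulk samples fewer cells of a type and less RNA per cell cannot be told apart, and the part of these shifts in the results on stress genes was not tested.

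No stress response gene passed the test across all genes. Of the 37, 36 averaged at least 1 TPM over the 6 libraries and were tested; SLC7A11, the cystine transporter subunit, had 0.292 to 1.11 TPM and was not. With limma on log2(TPM + 1), 0 of 36 had an adjusted p under 0.05, against 1.66% of all 15988 genes tested (0.181% higher and 1.48% lower). At an unadjusted p under 0.05 there were 10, of which 9 were lower and 1 higher with the MYH7B ASO (all genes: 10.6% lower and 4.67% higher). That count of 10, 27.8% of the 36 against 15.2% of all genes, moved with the libraries that entered and with replicate blocks. It was 10 again without scrambled ASO replicate 2 and without MYH7B ASO replicate 3 (all genes: 15.0% and 12.2%). The count was 8 without MYH7B ASO replicate 2 (22.2%, against 11.3%) and 7 without scrambled ASO replicate 3 (19.4%, against 16.3%). Without MYH7B ASO replicate 4 it was 3 (8.33%, against 11.7% of all genes), with 7 libraries 4 (11.1%, against 13.5%), and without scrambled ASO replicate 1 it was 6 (16.7%, against 13.4%). Under the replicate blocks by title and by description, fits of little power, it was 3 (8.33%, against 10.7%) and 2 (5.56%, against 6.86%). MYH7B ASO replicates 2 to 4 lay wholly below the scrambled ASO libraries for 9 of the 36 genes and wholly above for 1, against 14.1% and 7.11% of all genes. With the reordered replicate 1 among the MYH7B ASO libraries, 2 of these 9 were still wholly below, ATF6 and VLDLR, and DDIT4 was still wholly above (all genes: 10.3% and 4.57%). Elsewhere, groups that do not overlap are those of 3 against 3 unless replicate 1 is named. The median log2 fold change of the 36 was -0.26, against -0.044 for all genes, and 30 of the 36 estimates were below 0, against 54.8% of all genes. A p above the threshold does not show that a gene kept its level, since the smallest adjusted p here, 0.0779 for SEL1L in limma, came with a log2 fold change of -0.67.

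The authors' deposited table gave adjusted p-values for all 37 genes; the submitters' processing notes name DESeq2 without saying for which file. There, 7 of the 37 were under 0.05, against 8.71% of the genes with an adjusted p in the authors' deposited table (3.02% higher and 5.69% lower). DDIT4 was higher in the authors' deposited table, while VLDLR, ASNS, PSAT1, PHGDH, SLC7A5 and SEL1L were lower. Which libraries entered that comparison is not stated in the sources used here.

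A pair of libraries stood at the ends of the range for many of these genes. Scrambled ASO replicate 3 held the highest level of the 6 libraries for 23 of the 36 genes (63.9%, against 26.3% of all genes tested), and MYH7B ASO replicate 4 held the lowest for 19 (52.8%, against 24.7%). The same libraries had the highest and the lowest fibroblast marker sum. Among the 6, scrambled ASO replicate 3 also had the lowest share of TPM in mitochondrially encoded genes (27.4%) and in RN7SL1 and RN7SL2 (0.901%), and MYH7B ASO replicate 4 the highest of both (33.6% and 6.17%). The part of these shares in the levels of the stress genes was not tested. Without scrambled ASO replicate 3 the median log2 fold change of the 36 was -0.14 and 22 estimates were below 0 (61.1%). All genes then had a median of 0.0013, with 49.9% below 0. Without MYH7B ASO replicate 4 the median of the 36 was -0.20 with 26 below 0 (72.2%), beside 0.0047 and 49.6% for all genes. With the reordered MYH7B ASO replicate 1 added it was -0.083 with 24 below 0 (66.7%), beside -0.055 and 55.2% for all genes. In that fit 0 of the 36 were called (1.07% of all genes).

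**Figure D1:**
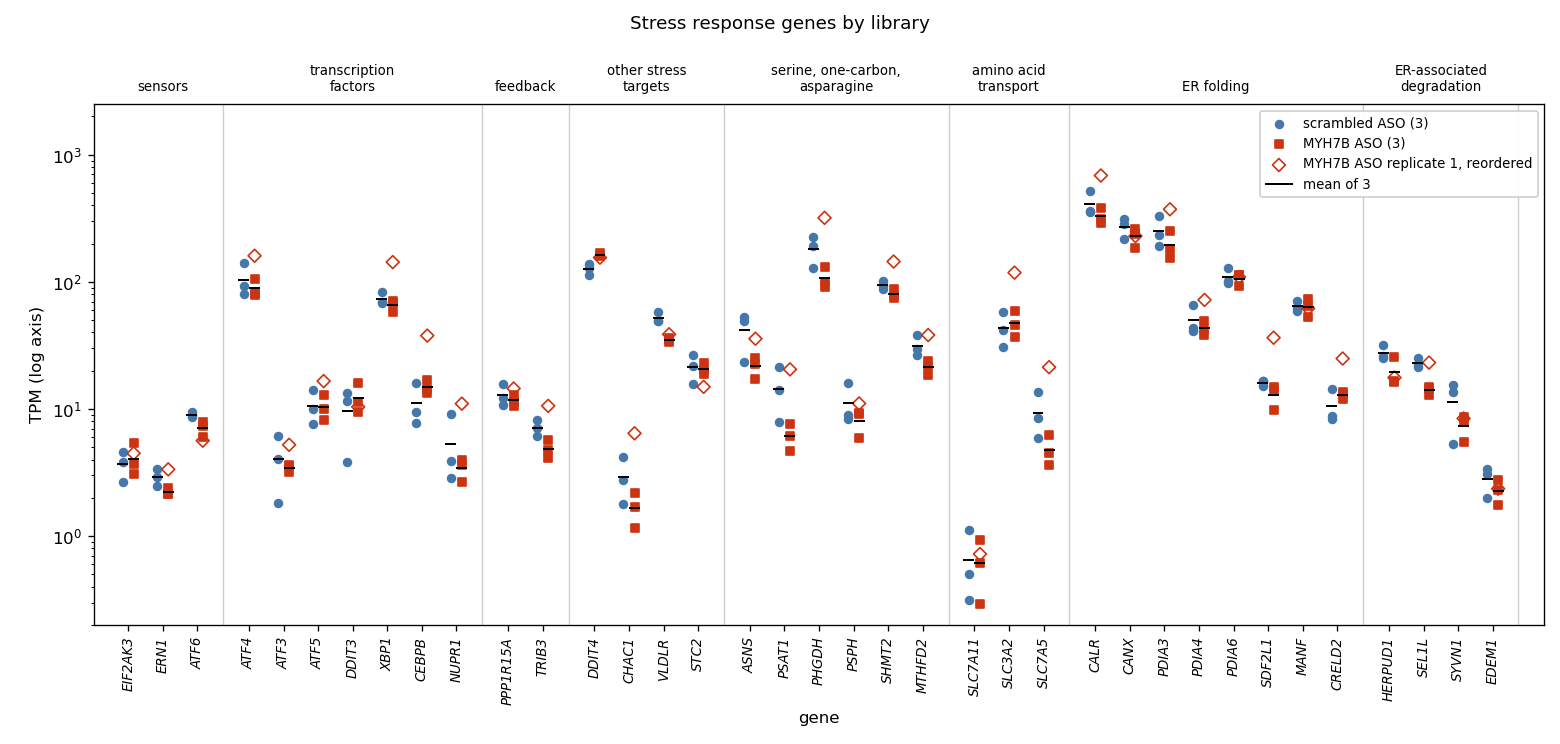
TPM on a log axis for the 37 stress response genes, grouped by role, with 1 point per library: scrambled ASO (circles), MYH7B ASO replicates 2 to 4 (squares) and the reordered MYH7B ASO replicate 1 (open diamonds), and bars at the means of 3. CALR reaches 520.2 TPM in the scrambled ASO group while SLC7A11 lies between 0.292 and 1.11 TPM in the 6 compared libraries, and the open diamonds for XBP1, CEBPB and SLC3A2 stand above all other libraries.

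Promoter sequence was examined because the pathway acts through known DNA elements. The elements searched on both strands, in the 250 bases before each RefSeq transcript start (GRCh38.p14), were the ER stress response element ERSE (CCAAT and CCACG parted by 9 bases of any kind), ERSE-II (ATTGG and CCACG parted by 1), the unfolded protein response element UPRE (TGACGTGG) and the C/EBP-ATF response element CARE (TGATGNAA), to which ATF4 binds with a C/EBP partner. Promoters were found for 32 of the 37 genes; NUPR1, PSPH, SHMT2, SLC7A11 and PDIA3 had no entry. ERSE occurred in 5 of 32 (CALR, CANX, CRELD2, PDIA6 and XBP1), against 0.0916% of 27305 genes, and ERSE-II in 2 (HERPUD1 and SDF2L1), against 0.0659%. CARE occurred in 4 (ASNS, ATF3, CHAC1 and HERPUD1), against 3.89% of genes, and UPRE in none, against 0.780%. These elements were first described in genes of this pathway, so their presence is background and not a result, and a match is no proof of a site in use. No match overlapped one of another element. The sequences printed are the CARE sites of ASNS and CHAC1 and the promoter stretches outside annotated exons of HERPUD1, CALR, XBP1 and CRELD2, since the responses of ATF4 and ER targets are read from these genes. The ASNS and CHAC1 sites lie in an annotated exon of another transcript. Letters run 5′ to 3′ on the gene's strand and capitals mark the matched element.
ASNS, chr7:97872458-97872487, minus strand, CARE: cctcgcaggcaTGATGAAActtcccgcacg
CHAC1, chr15:40953251-40953280, plus strand, CARE: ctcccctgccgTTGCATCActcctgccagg
HERPUD1, chr16:56931892-56932047, plus strand, CARE then ERSE-II: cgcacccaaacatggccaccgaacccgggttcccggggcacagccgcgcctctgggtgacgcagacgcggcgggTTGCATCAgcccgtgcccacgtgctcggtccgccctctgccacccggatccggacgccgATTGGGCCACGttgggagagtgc
CALR, chr19:12938359-12938577, plus strand, ERSE: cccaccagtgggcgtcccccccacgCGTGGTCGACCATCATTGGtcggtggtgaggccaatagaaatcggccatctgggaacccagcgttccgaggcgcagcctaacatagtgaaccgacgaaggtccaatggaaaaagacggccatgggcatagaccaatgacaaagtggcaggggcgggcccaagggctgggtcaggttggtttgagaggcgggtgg
XBP1, chr22:28800598-28800682, minus strand, ERSE: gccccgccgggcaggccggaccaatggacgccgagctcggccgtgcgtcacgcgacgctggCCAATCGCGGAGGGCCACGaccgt
CRELD2, chr22:49918459-49918633, plus strand, ERSE: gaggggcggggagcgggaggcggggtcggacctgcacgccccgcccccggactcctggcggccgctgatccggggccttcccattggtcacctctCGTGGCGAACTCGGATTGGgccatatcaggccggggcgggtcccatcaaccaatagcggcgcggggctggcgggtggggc
The 4 genes with a CARE match had log2 fold changes from -0.85 (ASNS) to -0.075 (ATF3), and the 5 with ERSE from -0.31 (CALR) to 0.31 (CRELD2). None of these 9 genes had groups that did not overlap, against 14.1% of all genes lower and 7.11% higher without overlap. Of the 2 genes with ERSE-II, SDF2L1 had MYH7B ASO replicates 2 to 4 wholly below the scrambled ones and HERPUD1 did not.

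None of the 3 ER stress sensors passed the test. EIF2AK3 encodes PERK, the ER kinase of eIF2 (chromosome 2, 88556741 to 88627576, GENCODE 29 on GRCh38), and had 4.63, 2.68 and 3.84 TPM in scrambled ASO replicates 1 to 3 and 3.71, 5.37 and 3.09 TPM in MYH7B ASO replicates 2 to 4. The groups overlapped (log2 fold change 0.10, limma adjusted p = 0.901). ERN1, which encodes the kinase and RNase IRE1 (chromosome 17, 64039142 to 64130819), had 2.47, 3.39 and 2.91 TPM and then 2.15, 2.41 and 2.15 TPM. MYH7B ASO replicates 2 to 4 lay below the scrambled ones, by less than 0.1 TPM at the nearest pair, while replicate 1, at 3.35 TPM, lay within the scrambled range (log2 fold change -0.27, limma adjusted p = 0.642). ATF6, the membrane-bound transcription factor (chromosome 1, 161766294 to 161964070), had 8.66, 8.91 and 9.51 TPM against 7.31, 7.96 and 6.06 TPM. Its groups did not overlap either, with replicate 1 lower still at 5.63 TPM (log2 fold change -0.31, standard error 0.17, limma adjusted p = 0.448).

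Among the 7 transcription factors the groups overlapped for every gene. Of all genes, 14.1% were lower and 7.11% higher without overlap. ATF4, the effector of the integrated stress response, had 92.4, 80.5 and 139.8 TPM with the scrambled ASO and 82.2, 105.8 and 79.2 TPM with the MYH7B ASO. Its level was highest in scrambled ASO replicate 3 and the log2 fold change was -0.20 (limma adjusted p = 0.717). DDIT3 encodes CHOP, a factor tied to stress-induced cell death, and had 3.80, 11.6 and 13.3 TPM against 9.49, 16.1 and 11.3 TPM. The low value was scrambled ASO replicate 1, and without it the log2 fold change went from 0.45 (limma adjusted p = 0.636) to -0.043. XBP1, whose RNA is spliced by IRE1, had 69.1, 67.9 and 83.7 TPM against 70.8, 68.0 and 57.7 TPM (log2 fold change -0.16, limma adjusted p = 0.642). ATF3, an early stress factor, had 1.83, 6.14 and 4.06 TPM against 3.61, 3.53 and 3.19 TPM, so the scrambled ASO libraries alone spanned 3.36-fold. CEBPB, a C/EBP partner in stress transcription, averaged 11.1 ± 4.32 TPM (SD, n = 3) in scrambled ASO libraries, then 14.9 ± 1.76 TPM (SD, n = 3) in the others, and its log2 fold change was 0.45 (limma adjusted p = 0.452). ATF5 had a log2 fold change of -0.015 and NUPR1, a small stress-induced chromatin protein, of -0.39 (limma adjusted p = 0.985 and 0.653). Reads of DDIT3 and ATF5 are uncertain because protein-coding genes overlap them and strand use in counting is not stated. The same limit holds for CANX, PDIA3, PDIA6, CRELD2 and SYVN1. For DDIT3 and SYVN1 an overlapping protein-coding gene lies on the same strand, so strand use in counting would not separate those reads. ATF4, XBP1, SLC7A5 and PDIA3 have named pseudogene copies in GENCODE 29 that could share reads.

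Feedback genes and other stress targets included DDIT4, higher in all 4 MYH7B ASO libraries than in any scrambled one, and VLDLR, lower in all 4. TRIB3 was lower in replicates 2 to 4 only, and none of the 3 passed the test. TRIB3, a pseudokinase that restrains ATF4 and CHOP, had 7.10, 6.09 and 8.22 TPM against 4.79, 5.67 and 4.09 TPM. Its groups did not overlap (log2 fold change -0.48, standard error 0.20, unadjusted p = 0.0451 and limma adjusted p = 0.314). Replicate 1 had 10.6 TPM of TRIB3, above all 6 other libraries, and with it the log2 fold change was -0.23. PPP1R15A, or GADD34, which directs dephosphorylation of eIF2, averaged 12.9 ± 2.47 TPM (SD, n = 3) and 11.7 ± 1.16 TPM (SD, n = 3). DDIT4, or REDD1, an inhibitor of mTOR complex signalling (chromosome 10, 72273920 to 72276036), had 113.6, 127.6 and 138.6 TPM against 162.6, 160.7 and 168.5 TPM. Replicates 2 to 4 of the MYH7B ASO were higher, a ratio of means of 1.29, and spanned less than 8 TPM. Its log2 fold change was 0.37 (standard error 0.13, limma adjusted p = 0.206), and 0.42 was listed in the authors' deposited table (adjusted p-value 0.0229). VLDLR, the lipoprotein receptor of that name and a reported PERK and ATF4 target (chromosome 9, 2621834 to 2660053), had 49.6, 48.8 and 57.7 TPM against 35.1, 36.3 and 33.8 TPM. It was lower in each of these MYH7B ASO libraries, and in replicate 1 with 38.7 TPM (log2 fold change -0.55, standard error 0.14, limma adjusted p = 0.0992), and -0.46 was listed in the authors' deposited table (adjusted p-value 0.00679). CHAC1, a glutathione-degrading enzyme that ATF4 and CHOP induce, averaged 2.92 ± 1.23 TPM (SD, n = 3) and 1.67 ± 0.51 TPM (SD, n = 3), with overlapping groups (limma adjusted p = 0.509). STC2, a secreted glycoprotein, had a log2 fold change of -0.024 (limma adjusted p = 0.971).

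**Figure D2:**
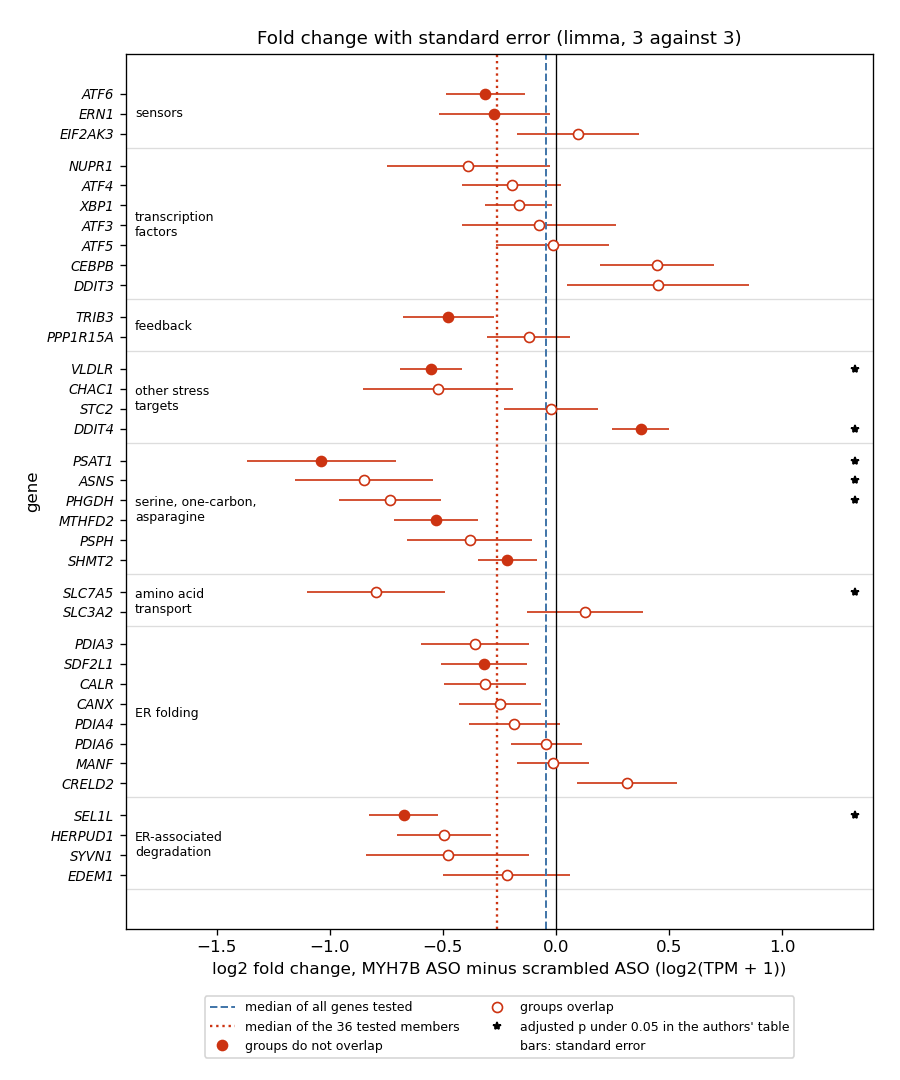
Log2 fold change (MYH7B ASO minus scrambled ASO, on log2(TPM + 1)) with its standard error for the 36 tested genes, by role; filled points mark groups that do not overlap, stars mark an adjusted p under 0.05 in the authors' deposited table, and vertical lines mark the medians. The 6 synthesis genes and the 4 degradation genes all lie left of 0, and PSAT1 lies farthest left at -1.04.

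The 6 genes of serine, one-carbon and asparagine synthesis had the lowest median of any role in the unblocked fit of 3 against 3, -0.63. All 6 estimates were below 0, though none was called by limma. PHGDH, the first enzyme of serine synthesis (chromosome 1, 119648411 to 119744226), had 190.6, 129.5 and 225.6 TPM in scrambled ASO replicates 1 to 3 and 91.2, 130.6 and 100.4 TPM in MYH7B ASO replicates 2 to 4. Only scrambled ASO replicate 2 lay within the MYH7B ASO range, just under replicate 3 of that group. The log2 fold change was -0.73 (standard error 0.22, unadjusted p = 0.0105 and limma adjusted p = 0.170), and -0.59 with an adjusted p-value of 0.0156 in the authors' deposited table. The reordered MYH7B ASO replicate 1 had 318.8 TPM of PHGDH, above all 6 other libraries, and with it the log2 fold change was -0.34. PSAT1, the next enzyme in the path (chromosome 9, 78297143 to 78330093), had 14.2, 7.88 and 21.3 TPM against 6.16, 7.65 and 4.63 TPM. The groups did not overlap, but scrambled ASO replicate 2 came within 0.3 TPM of the highest of MYH7B ASO replicates 2 to 4. Its log2 fold change was -1.04 (standard error 0.33, limma adjusted p = 0.189), and -0.78 was listed in the authors' deposited table (adjusted p-value 0.0159).

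ASNS, asparagine synthetase, whose CARE site is printed above (chromosome 7, 97852118 to 97872542), had 53.0, 23.4 and 49.3 TPM against 25.2, 22.8 and 17.2 TPM. Scrambled ASO replicate 2 again lay among the MYH7B ASO libraries. The log2 fold change was -0.85 (standard error 0.31, limma adjusted p = 0.236); with scrambled ASO replicate 2 left out it became -1.21 (limma adjusted p = 0.0481), the 1 gene of the 36 called in that fit, in which 0.935% of all genes were called. In the authors' deposited table ASNS had -0.67 with an adjusted p-value of 0.0285. MTHFD2, the mitochondrial folate enzyme (chromosome 2, 74198562 to 74217565), had 29.5, 26.4 and 38.5 TPM against 21.7, 23.8 and 18.5 TPM. Its groups did not overlap (log2 fold change -0.53, limma adjusted p = 0.222), and -0.43 was listed in the authors' deposited table (adjusted p-value 0.106). SHMT2, the mitochondrial serine hydroxymethyltransferase, was lower in MYH7B ASO replicates 2 to 4 than in any scrambled ASO library, at 80.6 ± 6.57 TPM (SD, n = 3) against 93.7 ± 6.41 TPM (SD, n = 3), with -0.22 as its log2 fold change. Replicate 1 had 144.5 TPM of SHMT2, above every scrambled ASO library, and 20.5 TPM of PSAT1 and 38.2 TPM of MTHFD2, both within the scrambled ASO range. PSPH, which completes serine synthesis, overlapped between groups (log2 fold change -0.38). ASNS, PSAT1, MTHFD2 and PSPH have named pseudogene copies in GENCODE 29 that could share reads, and protein-coding genes overlap MTHFD2 and SHMT2.

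Summed over the 6 genes, the role held 388.4, 283.8 and 451.5 TPM under the scrambled ASO and 241.3, 269.2 and 225.5 TPM under the MYH7B ASO, and these groups did not overlap. MYH7B ASO replicate 1 held 568.7 TPM, above every scrambled ASO library. PHGDH was the most abundant of the 6 in every one of these libraries. The median of the role was -0.47 without scrambled ASO replicate 3 and -0.80 without replicate 2, with all 6 estimates below 0 in both fits. With MYH7B ASO replicate 1 added the median was -0.33 and no gene of the role had an unadjusted p under 0.05. ER-associated degradation then had a lower median, -0.47. Under the block by description the medians of these roles were level, -0.580 and -0.581.

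**Figure D3:**
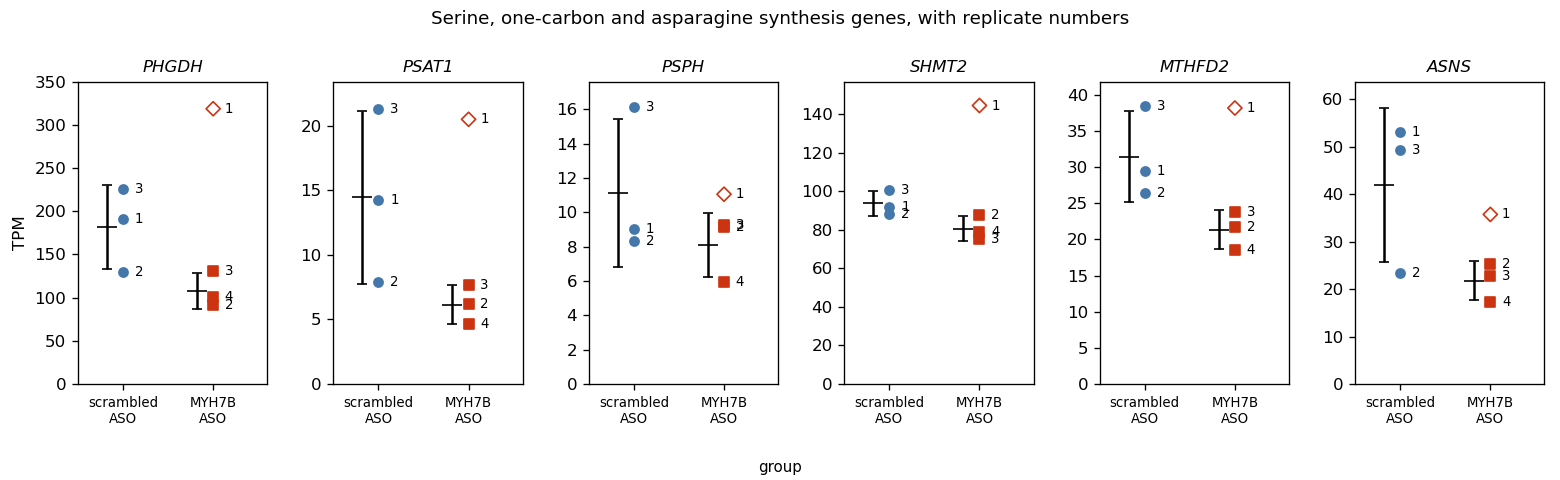
TPM of the 6 serine, one-carbon and asparagine synthesis genes in each library, with replicate numbers beside the points, and the mean and SD of 3 libraries as bars; the open diamond is the reordered MYH7B ASO replicate 1, which is outside the means. Scrambled ASO replicate 2 is the lowest of its group for every gene, and the diamond lies above the 3 other MYH7B ASO libraries in each panel.

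Of the amino acid transporters, SLC7A5, or LAT1, which carries large neutral amino acids (chromosome 16, 87830023 to 87869488), had 8.53, 5.89 and 13.7 TPM against 4.51, 6.24 and 3.62 TPM. The groups overlapped through scrambled ASO replicate 2 (log2 fold change -0.80, standard error 0.30, limma adjusted p = 0.265), and -0.68 was listed in the authors' deposited table (adjusted p-value 0.0242). The reordered MYH7B ASO replicate 1 had 21.3 TPM of SLC7A5, above all 6 other libraries, and with it the log2 fold change was -0.30. SLC3A2, the heavy chain that pairs with SLC7A5 and SLC7A11, averaged 43.8 ± 13.8 TPM (SD, n = 3) in scrambled ASO libraries, then 47.2 ± 11.2 TPM (SD, n = 3) in the others, and its log2 fold change was 0.13 (limma adjusted p = 0.860).

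The 8 ER folding genes held the highest summed TPM of any role, and none of them passed the test. CALR, the calcium-binding lectin chaperone calreticulin, averaged 412 ± 93.4 TPM (SD, n = 3) in scrambled ASO libraries, then 328 ± 46.7 TPM (SD, n = 3) in the others, and its log2 fold change was -0.31 (limma adjusted p = 0.462). Its membrane-bound partner CANX had -0.25 and the disulfide isomerases PDIA3, PDIA4 and PDIA6 had -0.36, -0.18 and -0.043, with overlapping groups in all 4. SDF2L1, a small ER chaperone cofactor, was the only one of the 8 for which replicates 2 to 4 did not overlap the scrambled ASO libraries, at 16.1 ± 0.78 TPM (SD, n = 3) and 12.9 ± 2.78 TPM (SD, n = 3), while replicate 1 had 36.4 TPM, above all others. Lower without overlap was thus 12.5% of the 8, against 14.1% of all genes. MANF, a secreted ER protein that protects cardiomyocytes, had 64.1 ± 6.36 TPM and 63.8 ± 10.2 TPM (SD, n = 3 each), and CRELD2, whose ERSE is printed above, had a log2 fold change of 0.31 (limma adjusted p = 0.560). The role as a whole had a median of -0.22, and -0.056 without scrambled ASO replicate 3, when 4 of its 8 estimates were below 0. All genes then had a median of 0.0013, with 49.9% below 0.

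ER-associated degradation held the gene with the smallest p of the set. SEL1L is the adaptor of the SYVN1 ubiquitin ligase (chromosome 14, 81471549 to 81533861) and had 21.3, 22.4 and 25.3 TPM against 12.9, 14.3 and 14.9 TPM. The groups were well apart, with a ratio of means of 0.610. Its log2 fold change was -0.67 (standard error 0.15, unadjusted p = 0.00195 and limma adjusted p = 0.0779), and -0.57 was listed in the authors' deposited table (adjusted p-value 0.00376). The reordered MYH7B ASO replicate 1 had 23.2 TPM, within the scrambled ASO range, and with it the limma adjusted p was 0.358. HERPUD1, an ER membrane protein that recruits this machinery (chromosome 16, 56932048 to 56944863), had 24.99, 31.6 and 26.3 TPM against 25.9, 16.4 and 16.7 TPM. MYH7B ASO replicate 2 was level with the scrambled ASO libraries while replicates 3 and 4 were lower (log2 fold change -0.49, limma adjusted p = 0.305). SYVN1, or HRD1, the ligase itself, ranged from 5.30 to 15.4 TPM within the scrambled ASO group and had a log2 fold change of -0.48 (limma adjusted p = 0.583). That of SYVN1 was -0.22 without scrambled ASO replicate 1 and -0.91 without replicate 2. EDEM1, which marks glycoproteins for removal, had -0.22 (limma adjusted p = 0.755).

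**Figure D4:**
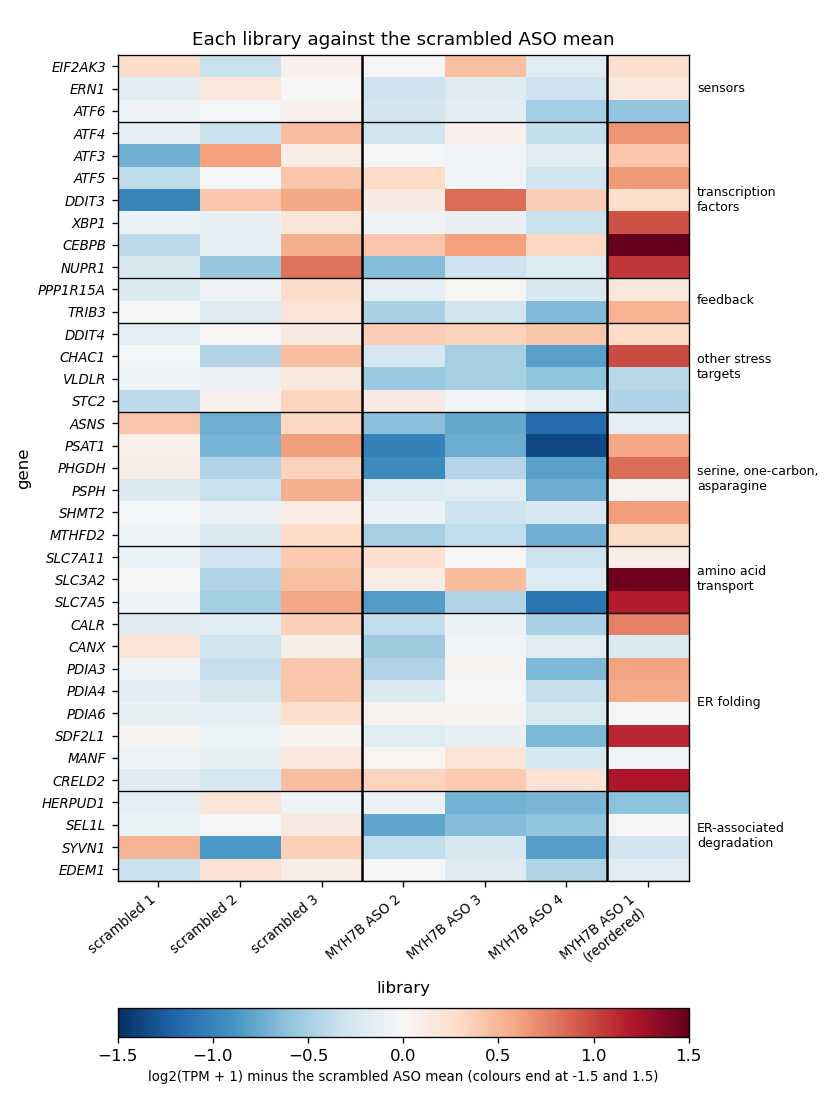
Heat map of log2(TPM + 1) minus the scrambled ASO mean for the 37 genes (rows, by role) in 7 libraries (columns), red above and blue below that mean. Scrambled ASO replicate 3 is red in most rows, MYH7B ASO replicate 4 is blue in most, and the reordered MYH7B ASO replicate 1 at the right is above all 6 other libraries for 16 of the 36 tested genes.

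Genes of the same pathways outside the 37 were taken from a list of 111, of which 109 were tested. Only NIBAN1 was called, and 18 had an unadjusted p under 0.05 (16.5%, against 15.2% of all genes). NIBAN1, a stress-induced regulator of translation, fell from 9.67, 7.74 and 10.7 TPM to 1.16, 1.88 and 1.29 TPM (log2 fold change -2.08, standard error 0.23, limma adjusted p = 0.00599). The call was lost with no filter on low genes (limma adjusted p = 0.0556) and under both replicate blocks, fits of little power (limma adjusted p = 0.331 and 0.720). NIBAN1 was also lower in the reordered replicate 1, at 2.54 TPM. The median of the 109 was -0.15, with 74 estimates below 0.

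The most studied ER chaperones did not pass the test. HSPA5, or BiP, averaged 136 ± 34.4 TPM (SD, n = 3) and 114 ± 17.9 TPM (SD, n = 3), and HSP90B1, or GRP94, 242 ± 59.9 TPM and 205 ± 35.2 TPM (SD, n = 3 each), with limma adjusted p of 0.617 and 0.634. In the branch that relays mitochondrial stress, the protease OMA1 had a log2 fold change of -0.29, its substrate DELE1 of 0.30 and the eIF2 kinase EIF2AK1, or HRI, of -0.56 (limma adjusted p = 0.597, 0.586 and 0.309). GDF15, a hormone induced by this branch, had 1.94, 1.76 and 5.05 TPM against 4.42, 10.7 and 3.42 TPM, with overlapping groups (log2 fold change 0.84, limma adjusted p = 0.410). FGF21 was listed at 0 in all 6 libraries. Of 110 listed genes with a value in the authors' deposited table, 6 were under 0.05 (5.45%, against 8.71% of all genes there): PPP1CA and SQSTM1 were higher, and NIBAN1, SLC6A9, ALDH1L2 and ERLEC1 were lower.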

How the data were processed

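The authors deposited TPM per gene, each column summing to 1000000, and a comparison table with a mean signal, a test score, a raw and an adjusted p-value and a shrunken log2 fold change and error for each gene, per the file headers. Build GRCh38.p13 and DESeq2 are named in the submitters' processing notes; aligner and quantifier are not given in the sources used here. TPM keeps no depth, so depth is unknown and the error is the spread of 3 libraries. The 6 other columns than MYH7B ASO replicate 1 correlated at 0.959 to 0.979. That column has 58721 filled rows; in sorted GENCODE 29 order its median correlation with the others was 0.955, against 0.408 as deposited.

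Genes averaging at least 1 TPM were tested with limma 3.58.1 (R 4.3.3, lmFit and eBayes with trend on log2(TPM + 1), a scale that understates changes of low genes), with Benjamini-Hochberg adjustment over all genes. The code was tested on simulated data. An exact permutation test of 3 against 3 cannot go below 0.1 and was not used. Python 3.11.15 with pandas 2.3.3 made the tables. The 37 genes and all lists were chosen with earlier results of these data known. Per-library values are given for the sensors, ATF4, DDIT3, XBP1, ATF3, genes with an unadjusted p under 0.05, and genes without overlap at a log2 fold change of 0.5 or more in size. Of the other pathway genes, called ones, HSPA5, HSP90B1, EIF2AK1, OMA1, DELE1, GDF15 and FGF21 were to be named, as was MYH7B. Alternatives were other pseudocounts, filters, scalings, variance settings and replicate blocks, 7 libraries, and leaving out each library.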

Additional observations from a re-analysis of the deposited data

Results flagged for a closer look

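In the MYH7B ASO group of 4, with replicate 1 reordered, each of the 37 genes was examined for a library far from the other 3. HERPUD1 alone had one: replicate 2 had 25.9 TPM, against 16.4 to 17.6 TPM in the other 3. Chance gives such a gap in about 1 of 20 groups, so 1 gene of 37 is no more than chance gives.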

How the results depend on the processing

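No stress response gene was called under any alternative except ASNS without scrambled ASO replicate 2, so the count ran from 0 to 1 when single libraries were left out. Of 642 values of single genes under the alternatives, 603 kept their direction and side of the threshold, 38 changed sign and 1 became called; 22 of the 36 genes never changed sign. The number of called genes among all 15988 was 265; it was 40 with no filter, 150 with no trend in eBayes, 170 with 7 libraries, and 53 to 149 when single libraries were left out. Few same-numbered pairs inform the replicate blocks, by title number or by description number, so these fits had little power. With these blocks 0 genes were called, 0 of the other pathway genes among them. NIBAN1 was then at -2.02 and -1.97, and with no filter 0 pathway genes were called. MYH7B was at -1.85 with no filter (limma adjusted p = 0.0779), -2.30 with 7 libraries (0.0525), -1.92 and -2.17 under the blocks by title and description, and -2.04 to -1.66 when single libraries were left out. It lost its call without MYH7B ASO replicate 4 (limma adjusted p = 0.0618). Same-numbered libraries had correlations of deviations of 0.076 and 0.11 by title and -0.073 and -0.039 by description, and no label says that they share a culture.

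Genes that changed sign had estimates near 0 or groups that overlap, SDF2L1 excepted. With 7 libraries ATF4 was at 0.017, ATF3 at 0.047, ATF5 at 0.15, XBP1 at 0.12, PDIA4 at 0.00082 and SDF2L1 at 0.042. Median-ratio rescaling gave ATF5 0.047, STC2 0.041, PDIA6 0.024 and MANF 0.053; quantile normalization gave ATF3 0.041, ATF5 0.12 and STC2 0.063. Removing mitochondrially encoded genes gave ATF5 0.010, STC2 0.0018 and MANF 0.013. The block by title gave DDIT3 -0.0036 and MANF 0.087, and that by description gave DELE1 -0.0069. Leaving out single libraries gave EIF2AK3 -0.083 to 0.24, ATF4 -0.36 to 0.034, ATF3 -0.44 to 0.23, ATF5 -0.20 to 0.19, DDIT3 -0.043 to 0.74, NUPR1 -0.67 to 0.018, PPP1R15A -0.23 to 0.016, STC2 -0.22 to 0.14, SLC3A2 -0.097 to 0.35, PDIA4 -0.31 to 0.024, PDIA6 -0.11 to 0.081 and MANF -0.12 to 0.11. Other estimates that moved by over 1.5 times when single libraries were left out, with no change of sign or call, included CEBPB 0.25 to 0.72, CHAC1 -0.74 to -0.29, PSPH -0.55 to -0.11, SLC7A5 -1.06 to -0.51, CALR -0.42 to -0.14, PDIA3 -0.56 to -0.15, CRELD2 0.18 to 0.54, SDF2L1 -0.43 to -0.14, SYVN1 -0.91 to -0.22, EDEM1 -0.38 to -0.10, EIF2AK1 -0.81 to -0.37, DELE1 0.053 to 0.50 and GDF15 0.42 to 1.2. The cause of these moves was not tested.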

Other observations

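The reordered MYH7B ASO replicate 1 entered the results above only as a check, and it stood high for many of these genes. Of the 36 tested, 16 were above all 6 other libraries (44.4%, against 24.1% of 15852 genes) and 2 were below all 6 (5.56%, against 27.0%). XBP1 had 143 TPM there, against 57.7 to 83.7 TPM in the other 6 libraries, CEBPB 37.8 TPM against 7.77 to 16.8 TPM, and SLC3A2 118 TPM against 30.8 to 59.0 TPM. The ER folding genes SDF2L1, CRELD2 and CALR had 36.4, 24.9 and 687 TPM, above the 16.6, 14.4 and 520.2 TPM of the highest other library. PHGDH, SHMT2, SLC7A5 and CHAC1 were also above all 6, while ATF6 and STC2 were below all 6 and VLDLR, at 38.7 TPM, stayed below every scrambled ASO library. DDIT4, at 155.1 TPM, stayed above every one. In that library mitochondrially encoded genes took 17.2% of TPM, against 27.4% to 33.6% in the others, and RN7SL1 with RN7SL2 took 14.4% against 0.901% to 6.17%. Its column follows another annotation release, and the part of these differences in the levels of stress genes was not tested.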
